A study of Homo sapiens with 16 samples.

Results

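Downstream-of-gene transcripts (DoGs) of antisense long noncoding RNA (lncRNA) genes were examined in HEK293 cells, a human embryonic kidney line. Antisense genes were taken as those whose GENCODE symbol ends in -AS with or without a number, which gave 127 of the 3139 DoGs with a deposited expression value. For comparison, 2873 of these DoGs follow protein-coding genes and 32 follow divergent lncRNA genes, whose symbols end in -DT. The cells were either induced, by 9 h in 200 mM sorbitol plus cycloheximide at 100 μg/mL (the DoG-inducing condition), or given fresh medium with neither agent (control). RNA was prepared from each in 4 ways. Conventional AGPC extraction (acid guanidinium thiocyanate, phenol and chloroform) recovers RNA from the aqueous phase, and heat-assisted improved extraction (hiAGPC) adds heating. SERIPH yields a 1st-step fraction, which is the RNA of the aqueous phase, and a 2nd-step fraction, obtained from the washed interphase by heat-assisted extraction. Each of the 8 groups had 2 biological replicates, which gave 16 libraries. Data on mature transcripts were not used here, so the identity of the cells was not checked against marker genes.

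Antisense lncRNA genes are transcribed from the DNA strand opposite a named partner gene, often from its promoter region. Transcription normally ends after the nascent RNA has been cut at a poly(A) signal, the hexamer AATAAA in DNA letters or the weaker variant ATTAAA. When cleavage fails, as is known after osmotic stress, the polymerase runs on past the gene end and leaves a long, chromatin-associated readthrough RNA, the DoG. RNA that stays in the interphase during conventional extraction and is released by heat or shearing is called semi-extractable.

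The DNA before the start of the DoG was searched for a poly(A) signal, and the counts are given here with no test. AATAAA or ATTAAA on the gene's own strand was found within the last 50 bases before the DoG in 57 of 127 antisense genes (44.9%). The same search found at least 1 of these hexamers in 2060 of all 3135 DoG genes (65.7%), in 1927 of 2869 protein-coding genes (67.2%) and in 10 of 32 divergent genes (31.2%). Only the gene's strand was searched, and a window with both hexamers was counted once. A hexamer here is a match of letters, not a shown cleavage site, and a gene was taken to end at the base before its DoG. For 29 antisense genes the DoG starts over 1 kb past the gene end given in GENCODE v44, and for 15 of them over 10 kb, where the authors used the later release v49. Among the 97 whose DoG starts within 1 kb of that end, 42 held a hexamer (43.3%), against 66.6% of the 2940 DoG genes of all kinds with such a start. The share was not lower among the 29 that start over 1 kb past it (51.7%, against 50.8% of 183 DoG genes of all kinds). Nor was it lower among the 15 over 10 kb past it (66.7%, against 60.0% of 35). Windows of 70 bases are shown for genes described below, 50 bases before the DoG and its first 20 bases, on the GRCh38 build and written 5′ to 3′ on the gene's strand, with the hexamer in capitals. The first 4 hold a hexamer and the other 4 hold none within the 50 bases.
PYCARD-AS1, chr16:31203403-31203472, plus strand: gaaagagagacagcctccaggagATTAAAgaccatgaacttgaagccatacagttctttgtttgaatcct
RPH3AL-AS2, chr17:357532-357601, plus strand: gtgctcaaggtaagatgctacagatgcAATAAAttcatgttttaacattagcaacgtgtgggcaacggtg
SLC9A3-AS1, chr5:480835-480904, plus strand: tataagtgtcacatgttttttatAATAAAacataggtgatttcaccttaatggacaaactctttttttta
HOXA10-AS, chr7:27172158-27172227, plus strand: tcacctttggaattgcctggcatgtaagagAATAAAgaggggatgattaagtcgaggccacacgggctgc
ADAMTSL4-AS2, chr1:150548542-150548611, minus strand: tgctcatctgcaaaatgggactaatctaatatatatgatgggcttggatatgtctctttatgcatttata
ZNF503-AS2, chr10:75408933-75409002, plus strand: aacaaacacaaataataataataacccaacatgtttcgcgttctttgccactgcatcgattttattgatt
CD200R1L-AS1, chr3:112812770-112812839, plus strand: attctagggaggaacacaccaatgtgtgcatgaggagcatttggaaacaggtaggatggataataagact
TCEAL3-AS1, chrX:103626056-103626125, minus strand: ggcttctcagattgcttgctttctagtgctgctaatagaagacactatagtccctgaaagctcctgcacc

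Where present, the hexamer began a median of 25 bases before the DoG, both in antisense genes and over all DoG genes. In the 2nd-step fraction of SERIPH the median log2 fold change with induction was 2.77 for the 57 genes with a hexamer and 2.7 for the 70 without, given here with no test.

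Antisense genes were listed with a DoG mainly in DoG-inducing libraries of the preparations that release interphase RNA. A gene is called listed where the authors' caller, ARTDeco, reported a DoG of at least 10000 bp for it in a library. In control cells 3 and 3 of the 127 antisense genes were listed in the conventional libraries, 2 and 3 in the 1st step of SERIPH, 4 and 5 in hiAGPC and 11 and 8 in the SERIPH 2nd-step fraction. In induced cells these numbers were 6 and 8, 5 and 6, 57 and 52, and 94 and 94, in the same order. In every preparation both DoG-inducing libraries listed more antisense genes than both control libraries, by mean ratios of 2.33, 2.2, 12.1 and 9.89. For each preparation the p-value was 0.333 (exact permutation, two-sided), which is as low as 2 libraries against 2 can go. The lists also hold 28 antisense genes without a deposited expression value, all of them in DoG-inducing libraries alone. With these, 10 and 9 antisense genes were listed in the conventional libraries of induced cells, 5 and 7 in the 1st step, 63 and 66 in hiAGPC and 101 and 97 in the 2nd-step fraction. As a share of all genes listed, antisense genes of both kinds made up 0.692% to 1.60% of the control lists, 1.46% to 2.39% of the conventional and 1st-step lists in induced cells, 3.52% and 3.78% of the hiAGPC lists and 4.23% and 3.96% of the 2nd-step lists.

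**Figure D1:**
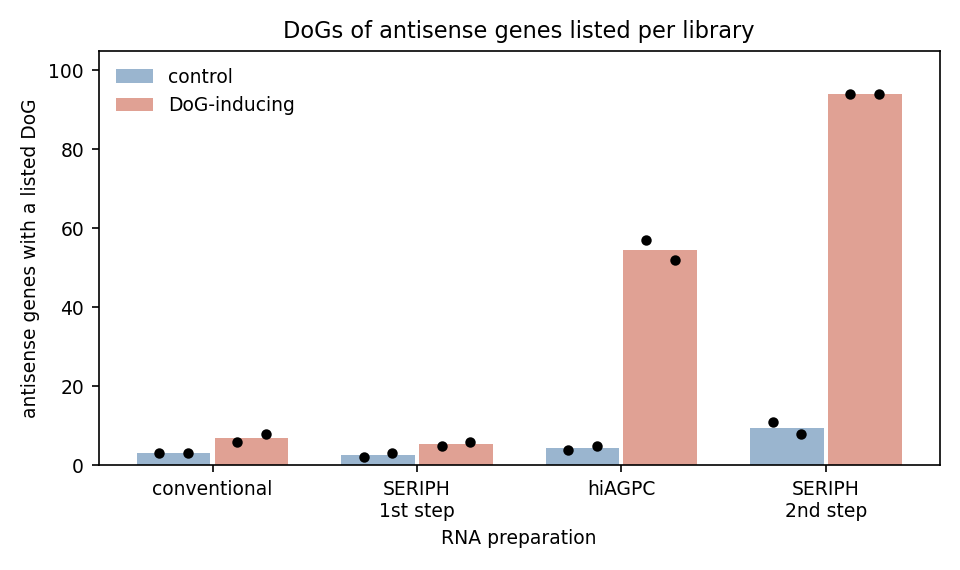
Number of the 127 antisense genes with a listed DoG (vertical axis) in each RNA preparation, with bars for the mean of 2 libraries and points for the libraries, control in blue and DoG-inducing in red. The DoG-inducing SERIPH 2nd-step libraries list 94 and 94 of these genes, the hiAGPC libraries 57 and 52, and no other library more than 11.

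A DoG listed in both replicates of a group was counted as reproducible. In induced cells 72 of the 127 antisense genes met this in the SERIPH 2nd-step fraction, where 64.1% of all DoGs did, and 47 in hiAGPC, where 44.4% did. Just 6 met it in the conventional preparation and 4 in the 1st-step fraction, against 9.73% and 8.10% of all DoGs. Of these genes 41 were shared by the 2nd-step fraction and hiAGPC. Another 31 were reproducible in the 2nd-step fraction and not in hiAGPC, of which 11 were in 1 hiAGPC library and 20 in none, and 6 were reproducible in hiAGPC and in just 1 library of the 2nd-step fraction. Of the 28 antisense genes without an expression value, 5 more were reproducible in hiAGPC and 0 in the 2nd-step fraction. In control cells 8 antisense genes were reproducible in the 2nd-step fraction, 4 in hiAGPC, 2 in the conventional preparation and 1 in the 1st-step fraction, against 18.2%, 12.9%, 8.74% and 6.92% of all DoGs. No antisense gene was listed in all 16 libraries, and ZBTB11-AS1 reached the highest number, 12.

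The expression values show the same order of preparations in induced cells. FPKM counts fragments per kilobase of the DoG region, scaled to the library, and more DoG RNA and less RNA of other kinds in a library cannot be told apart in it. In the 8 control libraries the median FPKM of the 127 antisense DoGs was 0.01 or 0.02, and over all DoGs it lay between 0.07 and 0.10. In induced cells the antisense median was 0.11 and 0.10 in the conventional libraries, 0.09 and 0.10 in the 1st-step fraction, 0.50 and 0.48 in hiAGPC and 0.77 and 0.75 in the 2nd-step fraction. Over all DoGs it was higher in each library, at 0.16 and 0.14, 0.14 and 0.14, 0.58 and 0.58, and 0.86 and 0.84. The rise in hiAGPC and the 2nd-step fraction is thus not particular to antisense genes. FPKM reached 1 for 38 and 35 antisense DoGs in the 2nd-step libraries and for 16 and 16 in hiAGPC, but for just 1 in each conventional or 1st-step library. DoGs that reached 1 were not counted over all kinds. In 96 of the 127 genes, both 2nd-step values lay above both hiAGPC values and these above all 4 aqueous-phase values in induced cells, and the same order held for 15 genes in control cells. This joint order was not counted over all DoGs. A gene enters only if at least 1 library lists its DoG, and 54 of the 127 were listed in DoG-inducing 2nd-step libraries and in no others. The order is thus partly set by how genes were chosen. The 54 were not counted over all DoGs either. Of all DoGs in induced cells, 79.3% had both 2nd-step values above both hiAGPC values. For 89.3% both hiAGPC values lay above both conventional values.

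**Figure D2:**
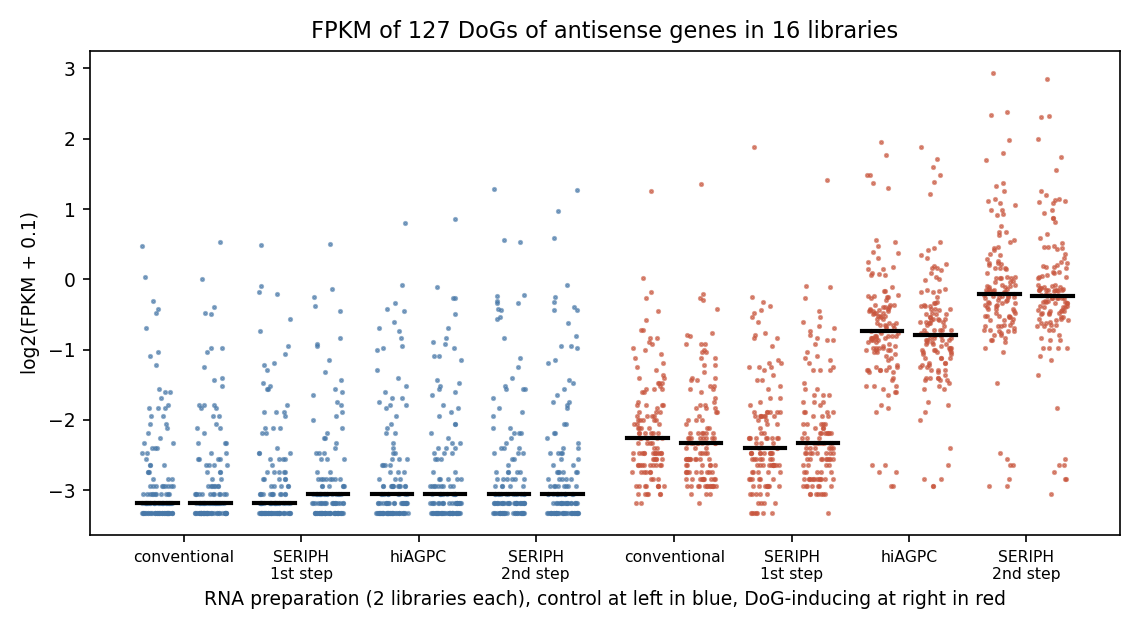
FPKM of the 127 antisense DoGs on the log2(FPKM + 0.1) scale (vertical axis) in each of the 16 libraries, with a point for each gene and a black line at the median. The control medians lie at FPKM 0.01 or 0.02, and the DoG-inducing medians rise to 0.50 and 0.48 in hiAGPC and 0.77 and 0.75 in the SERIPH 2nd-step fraction.

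The antisense DoGs of induced and control cells were compared within each preparation. Fold changes are on the log2(FPKM + 0.1) scale, which understates the change of low values, and a DoG was called changed at a limma adjusted p-value under 0.05 with a log2 fold change of 1 or more in size. The spread of each DoG was pooled over all 8 groups. Its SE and p-value thus do not measure the spread of the 2 groups compared alone. In the SERIPH 2nd-step fraction 114 of 127 antisense DoGs were called higher (89.8%, against 74.6% of all DoGs) and 8 lower (6.30%, against 11.7%), with a median log2 fold change of 2.73 beside 2.38 over all DoGs. In hiAGPC 110 were called higher (86.6%, against 70.2%) and 6 lower (4.72%, against 9.14%), with medians of 2.25 and 1.86. The conventional preparation had 38 called higher (29.9%, against 22.2%) and 5 lower (3.94%, against 11%), with medians of 0.68 and 0.44. The SERIPH 1st-step fraction had 32 called higher (25.2%, against 21.4%) and 6 lower (4.72%, against 10.6%), with medians of 0.67 and 0.43.

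These counts depend on which genes the table holds and on the scale. A gene enters the table only if at least 1 library lists its DoG, and 115 of the 127 were listed in no control library. Among those 115, 113 were called higher and 0 lower in the 2nd-step fraction. Among the 12 listed in a control library, 1 was called higher and 8 lower. The same split was not made over all DoGs, so neither count is read as particular to antisense genes. Subtracting from each library its median over all DoGs (centring) lowered the median of all DoGs in the 2nd-step comparison from 2.38 to 0.13. With it, 25 antisense DoGs were called higher (18.5% of all DoGs were) and 14 lower (28.2%) in the 2nd-step fraction. The centred counts were 18 higher and 17 lower in hiAGPC (13.9% and 28.7% of all DoGs), 16 and 10 in the conventional preparation (8.60% and 19.6%) and 13 and 10 in the 1st-step fraction (8.89% and 18.6%). In the 2nd-step fraction 24 antisense DoGs were listed at 0 in both control libraries, and without them the median log2 fold change was 2.59.

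Ranges of the 2 conditions were also compared without a model. Both DoG-inducing values lay above both control values for 116 antisense DoGs in the 2nd-step fraction (80.8% of all DoGs) and below for 10 (16.5%). In hiAGPC these numbers were 115 (80.4%) and 12 (17.5%), in the conventional preparation 102 (64.5%) and 15 (26.0%), and in the 1st-step fraction 90 (58.6%) and 12 (23.2%). The libraries of the 2 conditions were thus separated for most antisense DoGs, also in the aqueous-phase preparations, where fewer met the fold threshold.

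The pseudocount added before the logarithm sets how much of a change at low FPKM counts as a fold. At a pseudocount of 1, 29 antisense DoGs were called in either direction in the 2nd-step fraction (27.2% of all DoGs), 11 in hiAGPC (11%), 1 in the conventional preparation (0.988%) and 1 in the 1st-step fraction (1.02%). At 0.01 the calls numbered 122 (88.0%), 117 (83.4%), 96 (64.2%) and 94 (63.3%) in the same order, so the aqueous-phase preparations depended on it most.

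**Figure D3:**
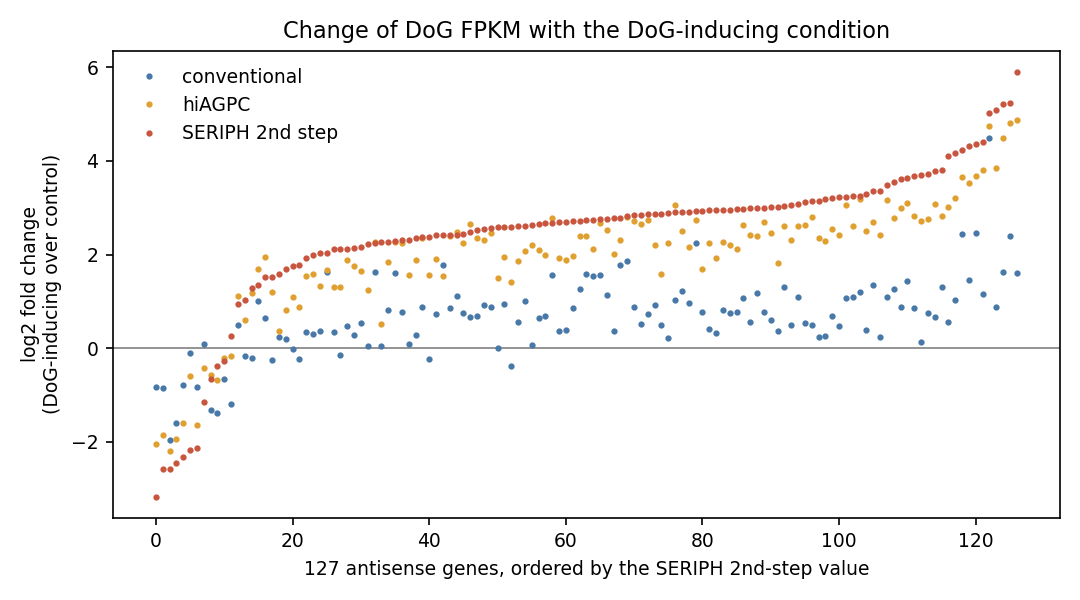
Log2 fold change of DoG FPKM, DoG-inducing over control (vertical axis), for the 127 antisense genes ordered by their value in the SERIPH 2nd-step fraction (horizontal axis), with the conventional preparation in blue, hiAGPC in yellow and the 2nd-step fraction in red. The medians are 0.68, 2.25 and 2.73, and a small set of genes at the left lies below 0.

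PYCARD-AS1 (ENSG00000261359.3) lies on chromosome 16 opposite PYCARD, which encodes the inflammasome adaptor ASC. Its DoG had an FPKM of 0.02 to 0.05 in the 8 control libraries. In induced cells it reached 0.31 and 0.28 in the conventional libraries, 0.34 and 0.31 in the 1st-step fraction, 3.78 and 3.60 in hiAGPC and 7.57 and 7.14 in the 2nd-step fraction. The groups did not overlap, and the log2 fold change was 5.90 ± 0.102 (SE) in the 2nd-step fraction (adjusted p = 9.15e-14), 4.87 in hiAGPC, and 1.60 and 1.66 with conventional and 1st-step RNA. Its longest listed region covers 7 coding genes on the same strand, among them the integrin genes ITGAM, ITGAX and ITGAD, and the part of their transcripts in the value was not tested.

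KMT2E-AS1 (ENSG00000239569.6), opposite the gene of the chromatin protein KMT2E on chromosome 7, was listed at 0 in 7 control libraries and at 0.01 in the eighth. In induced cells its FPKM was 0.46 and 0.39 in the conventional libraries, 0.35 and 0.37 in the 1st-step fraction, 2.71 and 2.71 in hiAGPC and 3.84 and 3.91 in the 2nd-step fraction. Every DoG-inducing library was thus far above every control library. Its log2 fold change was 5.24 ± 0.0788 (SE, adjusted p = 5.45e-14) in the 2nd-step fraction, and it was also listed in all 8 DoG-inducing libraries and in no control library. Of the 127 genes, its DoG begins farthest past the gene end given in GENCODE v44, by 119 kb.

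PPP1R35-AS1, opposite the gene of a centriole protein on chromosome 7, rose from 0.03 and 0.04 to 4.98 and 4.88 in the 2nd-step fraction (log2 fold change 5.22 ± 0.0908, SE, adjusted p = 9.46e-14), with 2.69 and 2.52 in hiAGPC and between 0.25 and 0.31 in the aqueous-phase preparations in induced cells. GATA2-AS1, opposite the gene of the hematopoietic transcription factor GATA2, rose from 0.02 and 0.01 to 2.29 and 2.11 in the 2nd-step fraction, a log2 fold change of 4.32 ± 0.0881 (SE, adjusted p = 2.27e-13). ZNF687-AS1 and PRR7-AS1 rose by 4.41 and 4.16 on the same scale. All 4 were also called higher in hiAGPC and in the conventional preparation.

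The DoG of RPH3AL-AS2 rose in every preparation by a log2 fold change of over 4. RPH3AL-AS2 (ENSG00000262294.2) lies inside RPH3AL, a gene for a Rab effector of regulated exocytosis, on chromosome 17. Its DoG had an FPKM of 0.00 or 0.01 in every control library. In induced cells it stood at 2.28 and 2.46 in the conventional libraries, 3.59 and 2.57 in the 1st-step fraction, 2.48 and 2.94 in hiAGPC and 3.36 and 3.24 in the 2nd-step fraction. The 4 log2 fold changes were 4.49, 4.83, 4.74 and 5.02, each with an SE of 0.135, and the highest adjusted p among them was 1.32e-10. In induced cells it was not called between preparations, with a log2 difference of 0.18 for hiAGPC over conventional, 0.12 for the 2nd over the 1st step and 0.28 for the 2nd step over hiAGPC, each with an SE of 0.135 (adjusted p = 0.217, 0.421 and 0.0803). Despite this level it was listed in just 1 library, a conventional one, with a region of 10 kb that lies wholly inside RPH3AL. Next to it in the conventional preparation came LMF1-AS1 and SLC9A3-AS1, with log2 fold changes of 2.46 and 2.43, opposite the genes of a lipase maturation factor and of a sodium-proton exchanger. In induced cells LMF1-AS1 had 0.41 and 0.49 in the conventional libraries, 0.49 and 0.56 in the 1st-step fraction, 1.20 and 1.14 in hiAGPC and 2.06 and 2.08 in the 2nd-step fraction, against 0.00 or 0.01 in control libraries. For LMF1-AS1, hiAGPC exceeded the conventional preparation by a called amount (1.21 ± 0.0867, SE, adjusted p = 4.14e-08).

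The 8 antisense DoGs called lower in induced cells in the 2nd-step fraction were those of CD200R1L-AS1, ATP8B1-AS1, TCEAL3-AS1, RAB11B-AS1, STX18-AS1, G2E3-AS1, ZBED3-AS1 and BBOX1-AS1. Except for G2E3-AS1, none was listed in a DoG-inducing library. CD200R1L-AS1 (ENSG00000242770.3), on chromosome 3 beside a gene related to the CD200 receptor, had the largest decrease. In control libraries its FPKM was 0.13 and 0.13 in the conventional preparation, 0.08 and 0.11 in the 1st-step fraction, 0.63 and 0.61 in hiAGPC and 1.37 and 1.40 in the 2nd-step fraction. In induced cells it lay between 0.02 and 0.09 in all 8 libraries. Its log2 fold change was -3.17 ± 0.0925 (SE, adjusted p = 3.40e-12) in the 2nd-step fraction and -2.05 in hiAGPC, and in control libraries it was among the antisense DoGs most dependent on the preparation.

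ATP8B1-AS1, opposite a phospholipid flippase gene, and STX18-AS1, opposite the gene of a SNARE protein of the endoplasmic reticulum, were likewise highest in the 2nd-step fraction in control cells. ATP8B1-AS1 had 0.76 and 0.85 there, against 0.50 and 0.46 in hiAGPC and 0.12 to 0.16 in the aqueous-phase libraries, and 0.01 to 0.06 in the 8 DoG-inducing libraries. STX18-AS1 had 0.69 and 0.66, against 0.31 and 0.37 in hiAGPC and 0.11 to 0.18 in the aqueous-phase libraries, and 0.01 to 0.06 in induced cells. In the 2nd-step fraction they fell by 2.59 ± 0.151 and by 2.32 ± 0.150 on the log2 scale (SE, adjusted p = 3.06e-09 and 8.79e-09).

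TCEAL3-AS1 (ENSG00000224031.1), opposite a gene of the transcription elongation factor A-like family on the X chromosome, fell in all 4 preparations and varied less between them. Its control FPKM was 0.37 and 0.41 in the conventional libraries, 0.42 and 0.46 in the 1st-step fraction, 0.52 and 0.52 in hiAGPC and 0.64 and 0.64 in the 2nd-step fraction, and all 8 DoG-inducing values lay between 0.02 and 0.04. The log2 fold changes were -1.97, -2.11, -2.20 and -2.57, each with an SE of 0.0815. RAB11B-AS1, opposite the gene of a GTPase of recycling endosomes, was also called lower in all 4, from 0.75 and 0.74 to 0.07 and 0.04 in the 2nd-step fraction. BBOX1-AS1, opposite the gene of the last enzyme of carnitine synthesis, went from 0.65 and 0.55 to 0.26 and 0.18 there, a log2 fold change of -1.14 ± 0.169 (SE, adjusted p = 3.08e-05). Without replicate 2 of the DoG-inducing 2nd-step libraries this value was -0.96, under the fold threshold. ZBED3-AS1 fell from 0.58 and 0.41 to 0.03 and 0.04.

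**Figure D4:**
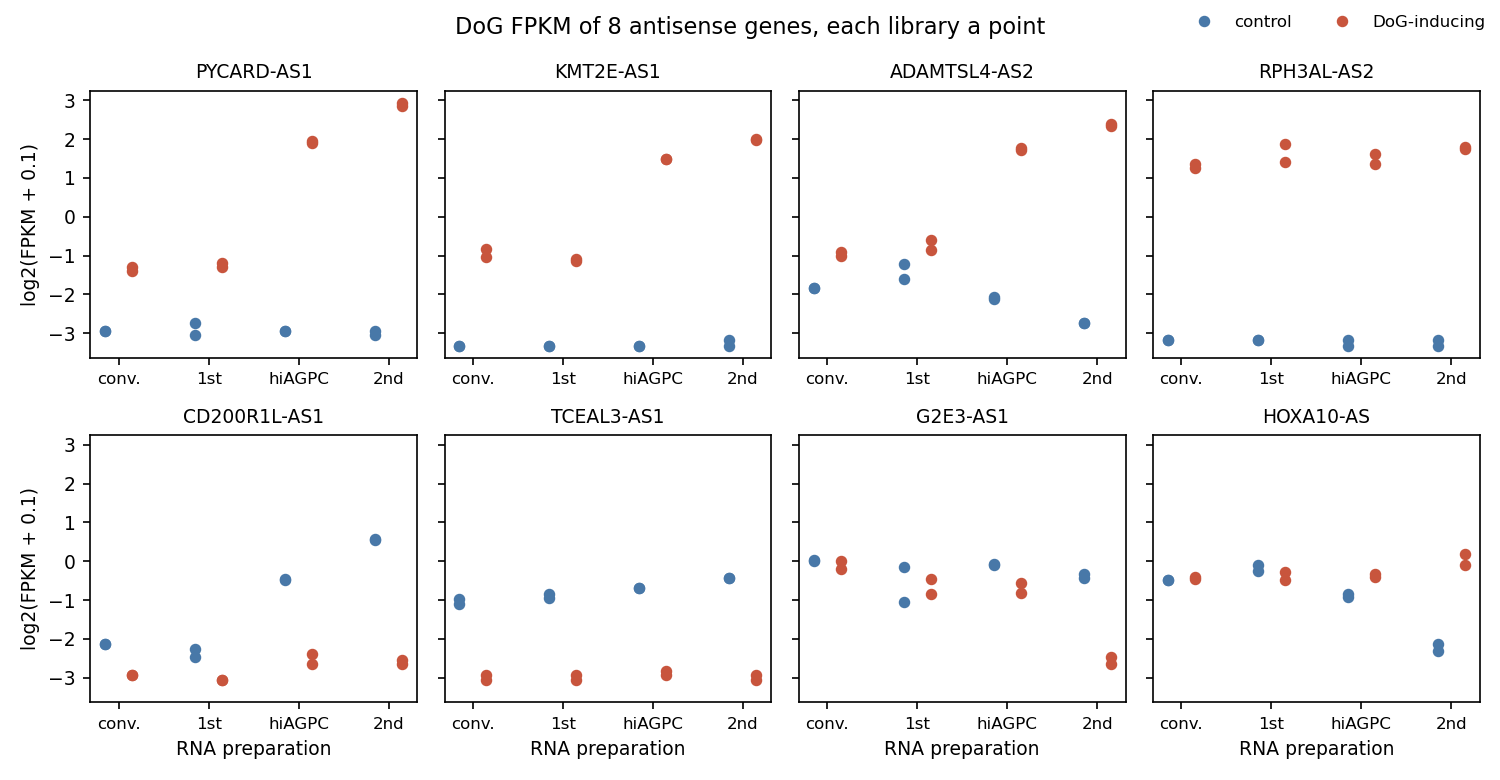
FPKM on the log2(FPKM + 0.1) scale (vertical axis) of 8 antisense DoGs in the conventional, SERIPH 1st-step, hiAGPC and SERIPH 2nd-step preparations, with a point for each library, control in blue and DoG-inducing in red. PYCARD-AS1, KMT2E-AS1 and ADAMTSL4-AS2 rise most in hiAGPC and the 2nd-step fraction, RPH3AL-AS2 rises to 2.28 to 3.59 in all preparations, CD200R1L-AS1 and TCEAL3-AS1 fall, and G2E3-AS1 is low just in the DoG-inducing 2nd-step libraries.

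Another 3 antisense DoGs, of PRRT3-AS1, LENG8-AS1 and ZBTB11-AS1, had measurable FPKM in both conditions. They were called lower in the aqueous-phase preparations in induced cells but not in hiAGPC or the 2nd-step fraction. PRRT3-AS1 had the highest control FPKM of the 127, although no control library listed a DoG for it. Its control values were 1.29 and 1.34 in the conventional libraries, 1.31 and 1.32 in the 1st-step fraction, 1.64 and 1.71 in hiAGPC and 2.33 and 2.31 in the 2nd-step fraction. The DoG-inducing values were 0.46 and 0.43, 0.48 and 0.53, 1.01 and 1.02, and 1.80 and 1.74 in the same order. Its log2 fold change was -1.38 ± 0.0691 (SE, adjusted p = 6.34e-09) in the conventional preparation. The region of PRRT3-AS1 reaches FANCD2, a DNA repair gene on the same strand, and the part of FANCD2 transcripts in these values was not tested. For ZBTB11-AS1 the control values lay between 0.58 and 0.73 in all 8 libraries, and the DoG-inducing values were 0.25 and 0.24, 0.12 and 0.24, 0.63 and 0.61, and 0.87 and 0.85.

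How the preparations differ in induced cells was compared next. Since 54 of the 127 genes entered through DoG-inducing 2nd-step libraries alone, counts higher in that fraction are partly set by this choice. hiAGPC was called higher than the conventional preparation for 101 of the 127 antisense DoGs (68.7% of all DoGs were) and lower for 0 (0.478%), with a median log2 difference of 1.48 beside 1.40 over all DoGs. At an unadjusted p under 0.05, 115 differed in either direction, and by the adjusted p alone 1 was lower. Counts by a p-value alone, here and below, were made for antisense DoGs only and have no share over all DoGs beside them. The SERIPH 2nd-step fraction was called higher than the 1st-step fraction for 108 (79.3% of all DoGs) and lower for 1 (2.96%), with medians of 2.08 and 1.99. Centred on each library's median, the antisense splits became 6 higher and 16 lower for hiAGPC over conventional (3.54% and 16% of all DoGs) and 11 and 19 for the 2nd over the 1st step (6.72% and 20.4%). Both 2nd-step values lay above both 1st-step values for 119 antisense DoGs (88.8% of all DoGs) and below for 1 (6.34%), and the same held for hiAGPC over conventional with 119 (89.3%) and 1 (6.02%). The largest differences in both comparisons were those of PYCARD-AS1, with 3.26 and 4.13, and PPP1R35-AS1, with 2.93 and 3.73, and each was also called when centred. MYOM3-AS1, opposite the gene of a muscle M-band protein, was listed at 0 in all control libraries and had 0.02 and 0.03 in the 1st-step fraction and 0.67 and 0.75 in the 2nd-step fraction in induced cells.

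Between the 2nd-step fraction and hiAGPC the differences were smaller and mostly in 1 direction. This direction too is partly set by the genes that entered through the 2nd-step fraction alone. In induced cells the 2nd-step fraction was called higher for 11 antisense DoGs (6.91% of all DoGs) and lower for 1 (1.75%), with a median log2 difference of 0.61 beside 0.52. By the adjusted p-value alone 91 were higher and 2 lower, and both values lay above both hiAGPC values for 103 (79.3%) and below for 3 (7.74%). Centring left 0 higher (0.00% of all DoGs), with 37 higher by the adjusted p alone and 67 at an unadjusted p under 0.05, and 1 lower (3.70%). The largest was that of MYRF-AS1, opposite the gene of the myelin regulatory factor, with 0.75 and 0.58 in the 2nd-step fraction and 0.18 and 0.27 in hiAGPC (1.24 ± 0.183, SE, adjusted p = 8.83e-05). PRR7-AS1 followed, with 2.41 and 2.05 against 0.94 and 0.89. After centring MYRF-AS1, PRR7-AS1 and MYOM3-AS1 stood at 0.76, 0.71 and 0.71, under the fold threshold. The count of 12 calls rose to 19 without replicate 2 of the DoG-inducing 2nd-step libraries.

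The same change of pseudocount moved the limma calls between preparations. For hiAGPC over conventional, the 2nd over the 1st step and the 2nd step over hiAGPC in induced cells, a pseudocount of 1 gave 6, 20 and 0 calls (4.65%, 19.2% and 0.223% of all DoGs), and 0.01 gave 107, 112 and 20 (77.7%, 86.9% and 15.5%). In control cells a pseudocount of 1 gave 0, 1 and 0 calls (0.00%, 0.828% and 0.127%), and 0.01 gave 5, 32 and 13 (3.54%, 31.6% and 7.36%). For the differences in response between the 2nd step and hiAGPC and between hiAGPC and conventional, the calls were 0 and 6 at 1 (0.0319% and 4.21%) and 14 and 96 at 0.01 (8.86% and 69.7%). Where no call was left at a pseudocount of 1, an unadjusted p under 0.05 was found for most antisense DoGs for the 2nd step over hiAGPC in induced cells (101 higher and 3 lower by the adjusted p alone), for 23 in control cells, for 11 for hiAGPC over conventional in control cells and for 101 for the first difference in response.

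G2E3-AS1 (ENSG00000257636.7), opposite a ubiquitin ligase gene on chromosome 14, was the antisense DoG lower in the 2nd-step fraction. In control cells its FPKM was 0.92 and 0.90 in the conventional libraries, 0.38 and 0.81 in the 1st-step fraction, 0.85 and 0.83 in hiAGPC and 0.69 and 0.64 in the 2nd-step fraction. The DoG-inducing values were 0.91 and 0.77, 0.46 and 0.63, 0.47 and 0.58, and 0.08 and 0.06. It was thus low just in the 2nd-step fraction of treated cells, at a log2 difference of -1.88 ± 0.233 (SE, adjusted p = 2.49e-05) from hiAGPC. It was the only one of the 127 genes whose 2nd-step values both lay below all other DoG-inducing values, and it was listed in 7 control and 2 DoG-inducing libraries, always at 10 kb.

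In control cells fewer antisense DoGs met the fold threshold between preparations than in induced cells. hiAGPC was called higher than the conventional preparation for 3 (1.08% of all DoGs), CD200R1L-AS1, BBOX1-AS1 and ATP8B1-AS1, and lower for 0 (0.00%), where 19 differed at an unadjusted p under 0.05 and by the adjusted p alone 1 was lower. The 2nd-step fraction was called higher than the 1st-step fraction for 9 (10.9%) and lower for 3 (3.28%), and higher than hiAGPC for 2 (0.860%), CD200R1L-AS1 and LENG8-AS1, and lower for 1 (1.47%), HOXA10-AS. For the 2nd over the 1st step, 23 were higher and 7 lower by the adjusted p alone and 38 differed at an unadjusted p under 0.05, and both 2nd-step values lay above both 1st-step values for 44 (50.4% of all DoGs) and below for 14 (14.1%). For the 2nd step over hiAGPC, 18 were higher and 4 lower by the adjusted p alone. Centring gave 7 higher and 3 lower for the former (5.99% and 5.03%) and 0 higher and 1 lower for the latter (0.159% and 2.17%). For CD200R1L-AS1 the difference between the 2nd and the 1st step was 2.93 ± 0.0925 (SE, adjusted p = 6.62e-10), and its rise over hiAGPC was 1.04, or 0.89 when centred. LENG8-AS1 had 1.35 and 1.86 in the 2nd-step fraction and 0.65 and 0.73 in hiAGPC, a difference of 1.10 ± 0.206 (SE, adjusted p = 0.00209). This call was lost without replicate 2 of the control 2nd-step libraries (0.88), when centred (0.94) and when only the libraries compared were fitted (1.10, adjusted p = 0.0583).

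HOXA10-AS, ADAMTSL4-AS2 and EXOC3-AS1 were the 3 antisense DoGs lower in the 2nd-step fraction of control cells than in the 1st-step fraction. HOXA10-AS (ENSG00000253187.3) lies in the HOXA cluster of developmental transcription factors on chromosome 7. Its control FPKM was 0.62 and 0.62 in the conventional libraries, 0.84 and 0.74 in the 1st-step fraction, 0.46 and 0.43 in hiAGPC and 0.13 and 0.10 in the 2nd-step fraction. In induced cells the 8 values lay between 0.62 and 1.04, with the highest, 0.83 and 1.04, in the 2nd-step fraction. It fell by 2.05 ± 0.114 (SE, adjusted p = 5.57e-08) from the 1st to the 2nd step in control cells, and it was called higher in induced cells in the 2nd-step fraction alone, by 2.26 ± 0.114 (SE, adjusted p = 6.81e-10). ADAMTSL4-AS2 (ENSG00000237781.3), opposite a gene for an extracellular matrix protein on chromosome 1, had control values of 0.18 and 0.18, 0.33 and 0.23, 0.13 and 0.14, and 0.05 and 0.05 in the same order. Its DoG-inducing values were 0.43 and 0.40, 0.56 and 0.45, 3.32 and 3.19, and 5.12 and 4.92, so the 2nd-step fraction was the lowest of the 4 in control cells and the highest in induced cells, while the 1st-step mean stayed above the conventional one. Its region covers APH1A, a gamma-secretase subunit gene on the same strand, whose part in these values was not tested.

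DoG lengths were compared between the 2nd-step fraction and hiAGPC for antisense genes listed in both replicates of both. In induced cells there were 41 such genes, with a median length of 47.5 kb in the 2nd-step fraction and 25 kb in hiAGPC. The ratio of mean lengths had a median of 1.5, and 28 genes (68.3%) were longer, 7 equal and 6 shorter in the 2nd-step fraction. Over the 1290 DoGs of all kinds the median ratio was 1.36 and 75.2% were longer. Both regions were longer than both hiAGPC regions in 20 genes (48.8%, against 46.0% of all kinds). The median ratio was 1.12 without replicate 2 of both preparations and 1.20 for the 17 genes with no further gene of their strand in the region. In control cells 4 antisense genes could be compared, 1 longer and 3 equal.

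ZNF503-AS2, opposite a zinc finger gene on chromosome 10, had the largest ratio, with 385 kb in both 2nd-step libraries and 20.0 kb in both hiAGPC libraries. DPH1-AS1, opposite the gene of a diphthamide synthesis enzyme, had 185 and 194 kb against 15.0 and 15.0 kb, and RBM15-AS1 had 113 and 113 kb against 25 and 25 kb. Regions of APOBEC3B-AS1 (10.0 and 85.0 kb against 10.0 and 15.0 kb) and PLBD1-AS1 (80 and 160.0 kb against 40.0 and 40.0 kb) varied more between replicates. The FPKM of ZNF503-AS2 differed less than its length, with 1.89 and 2.03 in the 2nd-step fraction and 1.21 and 1.17 in hiAGPC. PYCARD-AS1 went the other way, with 55.0 kb in each 2nd-step library against 268 and 323 kb, a ratio of 0.186, while its FPKM was higher in the 2nd-step fraction. Its FPKM was given over 412407 bp, longer than any listed region. SBF2-AS1 was also shorter, with 55.0 and 75 kb against 125 and 80 kb. KMT2E-AS1 had the longest mean region of the 2nd-step fraction, with 386 and 456 kb there and 481 and 456 kb in hiAGPC.

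**Figure D5:**
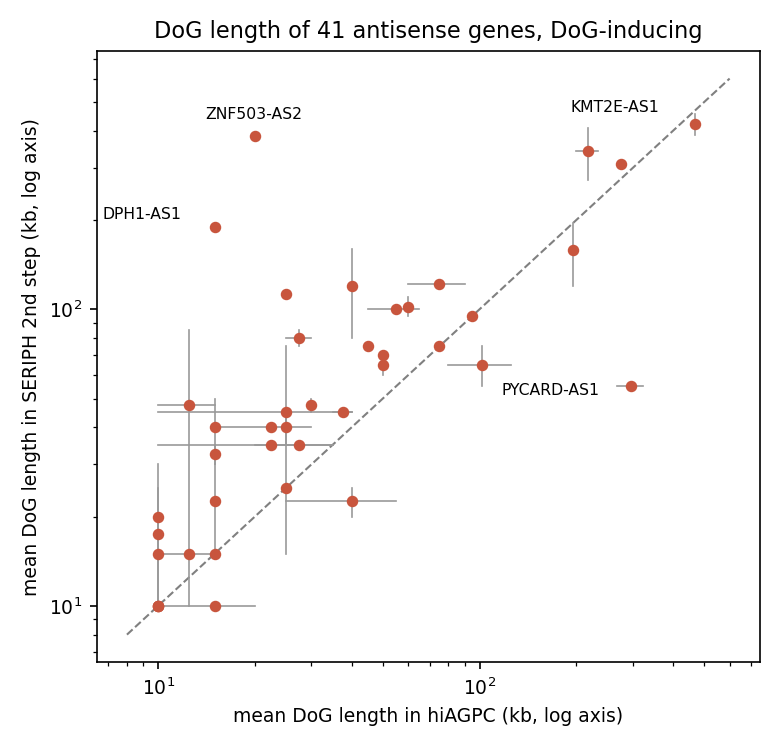
Mean DoG length in induced cells in hiAGPC (horizontal axis, kb, log scale) and in the SERIPH 2nd-step fraction (vertical axis, kb, log scale) for 41 antisense genes, with thin lines from one replicate to the other and equal length as a dashed line. Above the line lie 28 genes, with ZNF503-AS2 and DPH1-AS1 farthest from it, and PYCARD-AS1 lies farthest below.

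Gene and region lengths of the antisense genes were set beside those of the other DoG genes, with no test. Their median gene length was 9.16 kb, near the 9.27 kb of the 32 divergent lncRNA genes and under the 31.9 kb over all DoG genes. The longest listed region had a median of 25 kb, against 22.5 kb for divergent genes and 30 kb over all DoGs. A region of at least 100 kb was found for 14 (11%), against 18.8% of divergent genes and 19.4% of all DoGs. Of the 127 genes, 121 overlap the partner they are named for, and 64 of the DoGs run into it, 39 of them wholly inside. The median log2 fold change in the 2nd-step fraction was 2.69 for these 64 and 2.83 for the 63 that do not enter the partner. A coding gene on the same strand lay within the regions of 14, and the start of 7 lay under a DoG of another gene. The 113 without such a coding gene had a median of 2.72, with 102 called higher and 7 lower. The 14 with one had a median of 3.03, with 12 higher and 1 lower, and this split was not made over all DoGs.

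The partners themselves were the other genes followed, and 19 had a DoG with FPKM. Of these, 16 were called higher and 1 lower in induced cells both in the 2nd-step fraction (74.6% and 11.7% of all DoGs) and in hiAGPC (70.2% and 9.14%). In the conventional preparation 9 were called higher and 1 lower (22.2% and 11% of all DoGs), as in the 1st-step fraction (21.4% and 10.6%). Over the 1st step, the 2nd-step fraction was called higher for 17 in induced cells (79.3% of all DoGs). In induced cells the DoG of RPH3AL had 0.19 and 0.22 in the conventional libraries, 0.11 and 0.26 in the 1st-step fraction, 0.61 and 0.61 in hiAGPC and 1.19 and 1.29 in the 2nd-step fraction, whereas RPH3AL-AS2 lay between 2.28 and 3.59 in all. The 2nd over the 1st step was 2.28 ± 0.196 (SE, adjusted p = 1.67e-07) for RPH3AL. LENG8, partner of LENG8-AS1, was at 0.00 or 0.01 in control libraries and at 1.07 and 1.15 in the 2nd-step fraction in induced cells, where LENG8-AS1 had 1.05 and 0.91 after 1.35 and 1.86 in control libraries. KMT2E and its antisense gene were both called higher, with 2.65 and 5.24, as were PTOV1 and PTOV1-AS1, with 2.53 and 2.91, and the region of PTOV1-AS1 reaches FUZ on the same strand. ZBTB11 was called higher at 2.35, whereas ZBTB11-AS1 was not called in the 2nd-step fraction.

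The libraries were stranded, and whether FPKM was counted by strand was not stated in the sources used here. Of all DoGs, 3 pairs on opposite strands covered each other by at least 80%. All 3 differed more than 2-fold between strands in at least 1 library, and 0 were equal in all 16 libraries to within 0.01 FPKM. None of these pairs holds an antisense gene as defined here, so the separation of strands was not checked on the antisense genes.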

How the data were processed

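The authors prepared stranded rRNA-depleted libraries, trimmed reads with fastp 0.25.0, removed ribosomal reads with Bowtie2 2.5.4, aligned the rest with STAR 2.7.11b to GRCh38 and called DoGs per library with ARTDeco (minimum length 10000 bp, window 5000 bp, coverage 0.5) on GENCODE v49. The deposited FPKM were computed by the authors over 1 region per gene and rounded to 0.01. The study's methods give a nominal range of read pairs per sample, but the depth of each library and the reads used for scaling are not given in the sources used here, so no counting interval is printed. No value column was left without a library (0 of them).

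Symbols and positions came from GENCODE v44, which held 3131 of 3139 gene identifiers. The 127 antisense genes and all lists were chosen with earlier results of these data known. FPKM was compared as log2(FPKM + 0.1) in limma 3.58.1 (R 4.3.3), with a mean for each of 8 groups, all 16 libraries and an intensity trend. The pooled spread includes control groups, in which 25.2% to 32.5% of all DoGs had the same rounded value in both replicates, so it can be too small. P-values were adjusted by the Benjamini-Hochberg method over 3139 DoGs within each comparison, and only antisense rows are printed. The fit was tested on simulated data. Listings were compared by exact permutation in Python 3.11.15. Gene-end sequences were read from GRCh38 with 1 end on chromosome 8 not written out. A further sequence is not reported here. Genes named singly were the called extremes of each comparison (10 on each side for the 2nd-step fraction, 3 for others, 2 for differences between preparations), the 5 longest and 5 most abundant, the 5 largest and 5 smallest length ratios, those listed in control libraries alone, and 5 with a partner DoG. FPKM libraries are biological replicates per the labels, with 2 per group. Alternatives were other pseudocounts (0.01, 1), a filter at a mean FPKM of 0.1, centring, a replicate block, a block within each condition (chosen after seeing the data), fewer libraries, and regions of at least 20 kb.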

Additional observations from a re-analysis of the deposited data

Results flagged for a closer look

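Differences in the response between preparations were tested as interaction terms in limma. Most antisense DoGs lay near an FPKM of 0 in control cells, so with 0.1 added their control differences are small in advance. For the 2nd step over hiAGPC and hiAGPC over conventional, the median differences were 0.07 and 0.0 in control cells and 0.61 and 1.48 in induced cells. The terms had medians of 0.52 and 1.44, and thus largely repeat the differences in induced cells. The response to the DoG-inducing condition in the 2nd step of SERIPH exceeded that in hiAGPC for 11 antisense DoGs (5.58% of all DoGs) and smaller, or more negative, for 2 (1.15%). HOXA10-AS differed most, by 1.76 ± 0.161 on the log2 scale (SE, adjusted p = 4.08e-05), and C2orf74-AS1 followed with 1.28 ± 0.173 (adjusted p = 0.000192). C2orf74-AS1 had 0.01 and 0.01 in the 2nd-step fraction of control cells, 0.07 and 0.11 in hiAGPC, and 0.78 and 0.63 against 0.47 and 0.46 in induced cells, and its difference was 0.95 when centred. The negative terms were -1.58 ± 0.329 for G2E3-AS1 (adjusted p = 0.00229) and -1.12 ± 0.131 for CD200R1L-AS1 (adjusted p = 8.96e-05). Centred on the library medians, 1 antisense DoG was higher and 5 were lower (0.892% and 3.85% of all DoGs).

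Between hiAGPC and the conventional preparation the response was larger in hiAGPC for 97 antisense DoGs (64.0% of all DoGs) and lower for 2 (0.733%), or 8 and 12 when centred (3.47% and 17.3%). PYCARD-AS1 and ADAMTSL4-AS2 had the largest terms, 3.26 ± 0.144 and 2.96 ± 0.168, with adjusted p-values of 4.26e-09 and 1.45e-08. The negative terms were -1.22 ± 0.131 for CD200R1L-AS1 (adjusted p = 2.91e-06) and -1.01 ± 0.214 for ATP8B1-AS1 (adjusted p = 0.000881). The term of ATP8B1-AS1 was -0.96 without replicate 1 of the control hiAGPC libraries and -0.86 without replicate 1 of the DoG-inducing conventional libraries.

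Another 28 antisense genes were listed with a DoG but had no FPKM, and so enter no comparison of levels or lengths. All of their 36 listings were in DoG-inducing libraries and 0 in control libraries. Of these genes, 6 were listed in both replicates of a group, chosen here after their values were seen. BCAR3-AS1 (35.0 to 90.0 kb), PDE9A-AS1 (45.0 kb), PLA2G4E-AS1 (35.0 kb), RUNX3-AS1 (40.0 kb) and UBE2R2-AS1 (85.0 kb) were reproducible in hiAGPC, and NEXN-AS1 (10.0 kb) in the conventional preparation.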

How the results depend on the processing

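A filter on mean FPKM, a fit of the compared libraries alone and a replicate block left every count of calls within 1.5 times its value. Calls with the replicate block were 122, 116, 43 and 38 for the response in the 2nd-step fraction, hiAGPC, the conventional preparation and the 1st-step fraction. By the methods the 2 steps of SERIPH come from 1 lysate and the other extractions were run on the same samples, but the labels do not say whether a number marks 1 culture. Same-numbered libraries of the same condition did not deviate together (correlations from -0.0726 to 0.0571). Over all pairs of groups, also between conditions, the correlations ran from -0.104 to 0.143. A block for each condition and number, chosen after seeing the data, gave 3, 12 and 3 calls between preparations in control cells (in the order below), 101, 109 and 12 in induced cells, and 13 and 99 for the differences in response, each the number without a block. With a pseudocount of 1 the responses in the conventional preparation, hiAGPC, the 1st and the 2nd step had 1, 11, 1 and 29 calls, and centring gave 26, 35, 23 and 39. For hiAGPC over conventional, 2nd over 1st step and 2nd step over hiAGPC in induced cells, a pseudocount of 1 gave 6, 20 and 0 calls and centring 22, 30 and 1, and in control cells a pseudocount of 1 gave 0, 1 and 0, and centring 1 for the last. A pseudocount of 0.01 gave 96 and 94 calls for the response in the conventional preparation and the 1st step, 5, 32 and 13 between preparations in control cells (in the order above), and 20 for the 2nd step over hiAGPC in induced cells. The differences in response gave 0 and 6 calls with a pseudocount of 1 (2nd step over hiAGPC, hiAGPC over conventional) and 6 and 20 when centred. By the adjusted p alone, the 2nd step differed from hiAGPC for 93 antisense DoGs in induced cells and 22 in control cells.

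Without 1 library, calls ranged from 40 to 49, 116 to 116, 37 to 45 and 121 to 122 for the 4 responses, from 3 to 3, 10 to 14 and 3 to 3 between preparations in control cells (hiAGPC over conventional, 2nd over 1st step, 2nd step over hiAGPC), from 100 to 102, 108 to 110 and 10 to 19 in induced cells, and from 11 to 19 and 95 to 100 for the differences in response (each 19 was without replicate 2 of the DoG-inducing 2nd-step libraries). Without 1 replicate number in both preparations, the length ratio ranged from 1.00 to 1.17 in control cells and from 1.12 to 1.5 in induced cells, and it was 1.20 with no other gene on the strand. Genes listed per library ranged from 2 to 11 in control cells, from 5 to 8 in the aqueous-phase preparations of induced cells, from 52 to 57 in hiAGPC and from 94 to 94 in the 2nd step. Where 1 library was left in a group, it was assumed to vary like the others. With regions of at least 20 kb, the mean listed was 0, 1.5, 0 and 3.5 in control cells (conventional, hiAGPC, 1st step, 2nd step) and 2.0, 29.5, 0.5 and 58.0 in induced cells. Requiring both libraries lowered the control 1st-step number to 1. No log2 difference by which a gene was picked as a called extreme changed direction under the alternatives fitted. Other printed differences were not followed through them, and the lengths of single genes were not recomputed. Centring moved the median of all DoGs for hiAGPC over conventional in induced cells from 1.4 to -0.05. Small differences of this kind can thus change sign with it. The cause of these shifts was not tested. Depth per library is not given, FPKM below 0.1 rests on few steps of 0.01, and 2 libraries per group limit each test.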
